A study of Homo sapiens with 18 samples.

Results

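Hyaluronan is a large sugar polymer of the matrix, and the genes described here make it, bind it or break it down. They are the synthases HAS1, HAS2 and HAS3, the receptors CD44 and HMMR, the degrading proteins HYAL1, HYAL2 and CEMIP, and TNFAIP6, a secreted protein that modifies the polymer. These 9 genes were taken by name from the 58288 gene IDs of the count tables, and 8 of them passed the filter on low counts. HAS1 did not pass and is given by its counts alone. The libraries came from Kuramochi, OVCAR4 and OVCAR8, ovarian cancer lines that the study uses as models of high-grade serous cancer and that all carry GFP. Each line was grown for 48 h on a 3D omentum culture or directly on a plastic dish, with 3 libraries of each, 18 in all. The 3D culture was built from primary human omental fibroblasts in collagen I, under a layer of primary mesothelial cells. GFP-positive cells were recovered from it by fluorescence activated cell sorting, and the cells on plastic were sham sorted. Replicates are named by their labels: 2, 4 and 8 in Kuramochi, 42, 4 and 6 in OVCAR4, and 4, 61 and 62 in OVCAR8.

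Hyaluronan is made at the plasma membrane by the synthases, which join UDP-glucuronic acid and UDP-N-acetylglucosamine and push the growing chain out of the cell. The omental mesothelium is covered by a hyaluronan coat, and CD44 on ovarian cancer cells is known as a receptor that binds it. HYAL2 is tied to the cell surface by a lipid anchor and cuts long chains, HYAL1 works in lysosomes, and CEMIP takes part in hyaluronan breakdown in skin fibroblasts. TNFAIP6, also called TSG-6, moves heavy chains of inter-alpha-inhibitor onto hyaluronan. HMMR binds hyaluronan but is also a spindle protein of dividing cells.

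Total counts per library lay between 28415048 and 43142540. Levels are counts per 1000000 (CPM) on TMM-scaled library sizes, and differences are from the quasi-likelihood F-test of edgeR over all 22023 tested genes, called at a Benjamini-Hochberg adjusted p under 0.05. Genes used as markers of the omental cells were read in the sorted libraries. All 10 fibroblast markers on a list rose in OVCAR4, 8 of 10 in Kuramochi and 7 of 10 in OVCAR8. Over all genes 14.4%, 15.2% and 7.51% were called higher in Kuramochi, OVCAR4 and OVCAR8. The counts of these markers were 6 without OVCAR4 plastic replicate 4, 3 without Kuramochi plastic replicate 4, and 4 without OVCAR8 plastic replicate 4 or 62. Their summed level was 579 to 1359 CPM on the 3D culture and 347 to 444 CPM on plastic in Kuramochi. It was 140 to 1189 against 21.2 to 21.6 CPM in OVCAR4, and 690 to 2909 against 661 to 725 CPM in OVCAR8. DCN and POSTN were at 0 in every plastic library. Other markers on the list were not, with COL1A1 at 655 CPM on plastic in OVCAR8. In Kuramochi on plastic COL3A1 averaged 153 CPM and THY1 235 CPM. THY1 averaged less on 3D there (172 CPM), as did PDGFRB in OVCAR8 (26.4 against 29.1 CPM), and neither was called. The paper takes the rise of COL1A2, POSTN and DCN as a change in the cancer cells and also measured it by qRT-PCR. Whether omental cells in the sorted fraction gave any of these reads was not tested, nor was it for any other gene that rose on 3D. The summed level of 7 mesothelial markers overlapped between cultures in Kuramochi (34.8 to 49.3 against 38.0 to 88.4 CPM) and OVCAR4 (121 to 135 against 104 to 175 CPM) and was 58.0 to 59.8 against 48.6 to 55.5 CPM in OVCAR8. These sums were largely UPK3B in Kuramochi and OVCAR4 (57.2 and 125 CPM on plastic) and BNC1 in OVCAR8 (47.8 CPM on plastic). Of the 6 mesothelial markers tested, 4, 4 and 3 rose in Kuramochi, OVCAR4 and OVCAR8, against the same shares of all genes. In OVCAR8 1 rose without 3D or plastic replicate 62. PRG4 averaged 2.69 CPM on 3D and 0 on plastic in Kuramochi, 0.673 and 0.0712 in OVCAR4, and 1.56 and 0.00962 in OVCAR8. UPK3B fell in Kuramochi, though not without plastic replicate 4 (adjusted p = 0.0798). UPK3B and KRT5 in OVCAR4 and BNC1 in OVCAR8 averaged lower on 3D and were not called. COL1A2, a fibroblast collagen chain that was near 0 on plastic in Kuramochi and OVCAR8, is given below as the level of that signal in each 3D library. Fewer cells of a type and less RNA per cell cannot be told apart in such bulk libraries. Within OVCAR4 the 3D replicates 4 and 6 were close to each other (chi-square per degree of freedom 1.89), as were the OVCAR8 3D replicates 61 and 62 (2.6) and plastic replicates 4 and 62 (2.93), while all other pairs lay between 8.64 and 102. The deposited headers name the OVCAR8 3D libraries 61 and 62 as sets 1 and 2 of the same number, so they may not be separate cultures. Each close pair still differed by more than sampling noise and was counted as 2 libraries, so p-values may partly measure technical spread. With each close pair summed as 1 library, the number of hyaluronan genes called between cultures was 3 in Kuramochi (19.5% of all genes), 2 in OVCAR4 (8.18%) and 0 in OVCAR8 (1.97%).

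**Figure D1:**
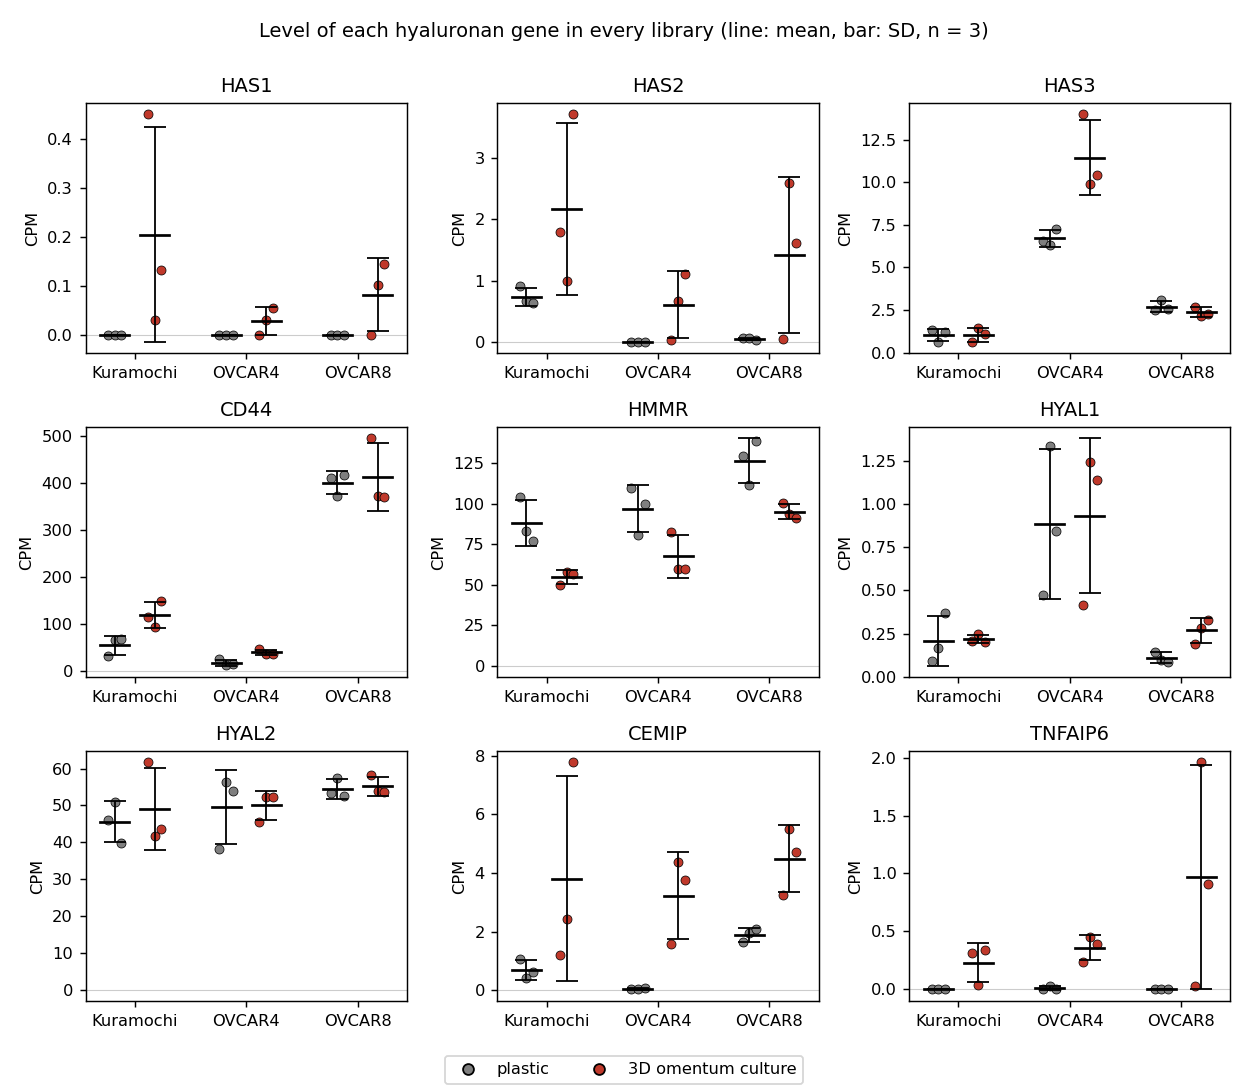
Level of each of the 9 genes in CPM in every library, by line, with plastic in grey and the 3D omentum culture in red; lines are means and bars are SD of 3 libraries. CD44 and CEMIP lie higher on 3D in Kuramochi and OVCAR4, HMMR lies lower on 3D in Kuramochi and OVCAR8, and HYAL2 stays between 38.1 and 61.7 CPM in all libraries.

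Promoters of RefSeq (GRCh38.p14, 250 bases before to 50 after each start) were searched on both strands for 3 motifs. TTTGAA is the core of the CHR element of mitotic genes and occurred in 15.2% of 35116 promoters. CCAAT, the box bound by NF-Y, occurred in 34.6%, and TGACTCA, a site form bound by AP-1, in 4.95%. HMMR held 2 matches to TTTGAA and 5 to CCAAT, and its promoter is shown because HMMR and mitotic genes both fell in Kuramochi and OVCAR4. TNFAIP6 held 2 matches to CCAAT and 1 to TGACTCA, and its promoter is shown because this gene was near 0 on plastic in all 3 lines. HAS1 held 1 TTTGAA, and no match to any of the motifs was found in HAS3, CD44, HYAL1, HYAL2 or CEMIP. The HAS2 promoter was not searched. Of the 15 mitotic genes used for comparison below, 12 matched a promoter, of which 8 held TTTGAA, 11 CCAAT and 0 TGACTCA. A match is a stretch of letters and not a measured binding site. Capitals mark CCAAT with its reverse complement in the first, TTTGAA repeated in the second, and CCAAT, the reverse complement of TGACTCA and the reverse complement of CCAAT in the third, all on the + strand. The HMMR stretches run from 163460552 to 163460581 and from 163460596 to 163460625 on chromosome 5, and the TNFAIP6 stretch from 151357442 to 151357531 on chromosome 2.
HMMR, CCAAT stretch: ggtttggctttCCAATTGGctaacgccggg
HMMR, TTTGAA stretch: tggggagaTTTGAATTTGAAaccggtaggg
TNFAIP6: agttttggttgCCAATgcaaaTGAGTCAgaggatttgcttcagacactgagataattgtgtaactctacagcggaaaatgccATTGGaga

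The 9 genes lie on 9 different stretches of GRCh38, with only HYAL1 and HYAL2 as near neighbours. By GENCODE 44, HAS1 spans chr19:51713112-51723991, HAS2 chr8:121612116-121641440 and HAS3 chr16:69105653-69118719. CD44 spans chr11:35138882-35232402 and HMMR chr5:163460203-163491941. HYAL1 lies at chr3:50299890-50312381 and HYAL2 at chr3:50317790-50322782, CEMIP at chr15:80779343-80951776 and TNFAIP6 at chr2:151357592-151380046. Several share bases with another gene, and the sources used here do not say if reads were counted by strand, so that reads of such partners cannot be told apart. On the opposite strand HAS2 overlaps HAS2-AS1, HAS3 overlaps CHTF8 and CEMIP overlaps MESD, and on the same strand HYAL2 overlaps TUSC2 and CD44 overlaps ENSG00000251194. None of these 5 partners was called between cultures in any line, with adjusted p values from 0.0564 (MESD in OVCAR4) to 0.977.

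On plastic the 3 lines carried different sets of hyaluronan genes. Kuramochi expressed both HAS2 and HAS3 at low levels, OVCAR4 expressed HAS3 with no read of HAS2, and OVCAR8 expressed mostly HAS3 and the highest CD44. Of the 8 tested genes 5 differed between each pair of lines, against 61.7% of all genes between OVCAR4 and Kuramochi, 67.7% between OVCAR8 and Kuramochi and 68.9% between OVCAR8 and OVCAR4. These shares are near 5 in 8, so the set differed between lines about as often as other genes.

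HAS2, the synthase known for long chains and for its role in the developing heart, was at 0.908, 0.661 and 0.628 CPM in the Kuramochi plastic replicates 2, 4 and 8. It had 0 counts in each of the 3 OVCAR4 plastic libraries and 2, 2 and 1 counts in OVCAR8. Kuramochi thus lay above both other lines in every library. The level was at least 23.9-fold higher in Kuramochi than in OVCAR4 (72 against 0 counts, with a floor of 3 counts over the group, adjusted p = 0.00769), and at least 15.6-fold without OVCAR4 plastic replicate 4. OVCAR8 lay below Kuramochi by a log2 difference of -3.77 (SE 1.37, adjusted p = 0.0240). This call was lost without Kuramochi plastic replicate 2 (adjusted p = 0.0667) or without OVCAR8 plastic replicate 4 (0.0613), 61 (0.0535) or 62 (0.0745). The antisense partner HAS2-AS1 was likewise lower in both other lines (adjusted p = 2.85e-05 in OVCAR4 and 2.03e-05 in OVCAR8), and some of the HAS2 difference could sit in shared bases, which was not tested.

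HAS3, the synthase known for a high rate of synthesis, had the opposite order of the lines. It was at 6.54, 6.32 and 7.25 CPM in OVCAR4 replicates 42, 4 and 6, at 2.48, 3.06 and 2.57 CPM in OVCAR8 replicates 4, 61 and 62, and at 1.32, 0.633 and 1.18 CPM in Kuramochi replicates 2, 4 and 8. The 3 lines did not overlap. The log2 difference was 2.69 (SE 0.28, adjusted p = 1.87e-07) between OVCAR4 and Kuramochi, 1.37 (SE 0.28, adjusted p = 0.000304) between OVCAR8 and Kuramochi, and -1.31 (SE 0.26, adjusted p = 0.000205) between OVCAR8 and OVCAR4. CHTF8, which shares 710 bases with HAS3 on the other strand, was higher in OVCAR8 than in OVCAR4 (log2 difference 0.55), opposite to HAS3. It was also higher in OVCAR8 than in Kuramochi (0.41, adjusted p = 0.00107), the same direction as HAS3. Between OVCAR4 and Kuramochi CHTF8 was not called (-0.15, adjusted p = 0.197).

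CD44, the main cell surface receptor for hyaluronan, spanned the widest range in CPM. OVCAR8 plastic replicates 4, 61 and 62 had 410, 371 and 417 CPM, Kuramochi replicates 2, 4 and 8 had 30.7, 64.6 and 67.3 CPM, and OVCAR4 replicates 42, 4 and 6 had 24.2, 12.04 and 14.6 CPM. All 3 lines were separate. OVCAR8 was 23.6-fold above OVCAR4 (log2 difference 4.56, SE 0.31, adjusted p = 4.35e-10) and 7.37-fold above Kuramochi (2.88, SE 0.28, adjusted p = 6.86e-08), and OVCAR4 lay below Kuramochi by a log2 difference of -1.68 (SE 0.28, adjusted p = 4.18e-05). ESRP1, a splicing regulator known to act on CD44 transcripts, was highest in the line with the least CD44, with 144 CPM in OVCAR4, 2.74 CPM in OVCAR8 and 0.283 CPM in Kuramochi. LAYN, a further membrane receptor for hyaluronan, followed CD44 with 60.0, 5.13 and 0.837 CPM in OVCAR8, Kuramochi and OVCAR4, and both steps passed the test (adjusted p = 1.68e-08 between OVCAR8 and Kuramochi, 5.57e-06 between OVCAR4 and Kuramochi). The counts are summed over all forms of a gene, so the isoforms of CD44 were not measured.

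CEMIP, which breaks hyaluronan down outside lysosomes, was at 1.63, 1.97 and 2.08 CPM in OVCAR8 plastic libraries and at 1.08, 0.413 and 0.628 CPM in Kuramochi replicates 2, 4 and 8. In OVCAR4 it was almost silent, with 5 counts over 3 libraries (0.0298 to 0.0937 CPM). OVCAR4 lay below Kuramochi by a log2 difference of -3.69 (SE 0.90, adjusted p = 0.00168) and OVCAR8 above OVCAR4 by 5.10 (SE 0.82, adjusted p = 2.39e-05). Without OVCAR4 plastic replicate 6, which held 3 of the 5 counts, these differences were -4.37 and 5.78. OVCAR8 was above Kuramochi by 1.41 (SE 0.56, adjusted p = 0.0325), a call that was lost without Kuramochi plastic replicate 4 (adjusted p = 0.134) or 8 (0.0850) and without OVCAR8 plastic replicate 61 (0.0666) or 62 (0.0737).

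HYAL1, the lysosomal hyaluronidase, was low throughout. It had 15, 45 and 27 counts in OVCAR4 replicates 42, 4 and 6, 3, 6 and 10 in Kuramochi replicates 2, 4 and 8, and 5, 3 and 3 in OVCAR8 replicates 4, 61 and 62. OVCAR4 was highest and did not overlap with the other lines in CPM. It exceeded Kuramochi by a log2 difference of 2.14 (SE 0.51, adjusted p = 0.00127), or 2.79 without Kuramochi plastic replicate 8, and OVCAR8 lay below OVCAR4 by -2.97 (SE 0.55, adjusted p = 0.000107). HYAL2 was within 38.1 to 57.5 CPM on plastic in all 3 lines and was not called between any of them. Its widest difference was 0.26 between OVCAR8 and Kuramochi, with a 95% interval from -0.08 to 0.59 on the log2 scale. HMMR was at 127 ± 13.9 CPM in OVCAR8, 96.9 ± 14.5 in OVCAR4 and 88.2 ± 14.2 in Kuramochi (SD, n = 3). The excess of OVCAR8 over Kuramochi passed (log2 difference 0.52, SE 0.15, adjusted p = 0.00527). That over OVCAR4 (0.39, SE 0.15, adjusted p = 0.0304) was lost without OVCAR4 plastic replicate 4 (adjusted p = 0.192) or 6 (0.0520) and without OVCAR8 plastic replicate 4 (0.0758) or 62 (0.118). OVCAR4 and Kuramochi overlapped in HMMR (difference 0.14, 95% interval -0.18 to 0.45). HAS1 and TNFAIP6 had 0 counts on plastic, except for 1 count of TNFAIP6 in OVCAR4 replicate 4, so no line could be ranked for them. For a library of 28415048 counts or more, 0 counts allow up to 3 counts, and these limits cover counting error only.

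Set side by side per kb of exon, the genes fall into 3 tiers on plastic. CD44, HMMR and HYAL2 stood highest, at 5.43, 22.4 and 10.3 CPM per kb in Kuramochi, 1.69, 24.7 and 11.2 in OVCAR4, and 40.0, 32.2 and 12.3 in OVCAR8. HAS3, HAS2, CEMIP and HYAL1 were between 0 and 1.29 CPM per kb in the 3 lines, and HAS1 and TNFAIP6 were at or near 0. CD44 was therefore below HMMR and HYAL2 in OVCAR4 and above both in OVCAR8.

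The first question on the 3D culture was which synthase the cells carried there. HAS2 was higher in OVCAR4 and OVCAR8, HAS3 rose in OVCAR4, and reads of HAS1 were found on the 3D culture alone, in 7 of 9 libraries. In each line the reads of both genes were fewest in the 3D library with the least COL1A2.

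HAS1 had 13, 1 and 4 counts in the Kuramochi 3D replicates 2, 4 and 8, 0, 1 and 2 in the OVCAR4 3D replicates 42, 4 and 6, and 0, 4 and 7 in the OVCAR8 3D replicates 4, 61 and 62. All 9 plastic libraries were at 0. The level was at least 6.42-fold higher on 3D in Kuramochi (floor of 3 counts over the group), or 2.61-fold without 3D replicate 2, 4.17-fold without plastic replicate 2 and 4.03-fold without plastic replicate 4. In OVCAR8 it was at least 2.94-fold higher, or 1.75-fold without 3D replicate 62, 1.93-fold without plastic replicate 4 and 1.92-fold without plastic replicate 62. In OVCAR4 the 3 counts gave no fold.

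HAS2 in Kuramochi was at 1.80, 0.989 and 3.71 CPM in 3D replicates 2, 4 and 8 against 0.628 to 0.908 CPM on plastic. The cultures did not overlap, but the log2 difference of 1.55 (SE 0.87) did not pass (adjusted p = 0.204). With the replicate numbers as a block, which the Kuramochi libraries support as a pairing, it was 1.38 and passed (adjusted p = 0.0469). COL1A2 in these 3D libraries was 180, 38.2 and 275 CPM, the same order as HAS2. In OVCAR4, HAS2 had 1, 21 and 40 counts in 3D replicates 42, 4 and 6 and 0 on plastic. Against the floor of 3 counts this was a rise of at least 19.0-fold (adjusted p = 0.0287), or 29.3-fold without 3D replicate 42, 10.2-fold without 3D replicate 6 and 12.4-fold without plastic replicate 4. The call was lost without 3D replicate 4 (adjusted p = 0.0686) or 6 (0.105) and without plastic replicate 42 (0.0655), 4 (0.101) or 6 (0.0641). In OVCAR8, HAS2 was at 0.0543, 2.58 and 1.61 CPM in 3D replicates 4, 61 and 62 and at 0.0288 to 0.0657 CPM on plastic. Replicate 4 lay within the plastic range, while the close pair 61 and 62 lay far above it. COL1A2 in these libraries was 8.33, 599 and 367 CPM. The log2 difference of HAS2 was 4.72 (SE 1.28, adjusted p = 0.0302), and the call was lost without 3D replicate 61 (adjusted p = 0.134) or 62 (0.0941) or without plastic replicate 4 (0.113), 61 (0.0863) or 62 (0.126). With close pairs summed HAS2 was called neither in OVCAR4 nor in OVCAR8 (adjusted p = 0.253 in OVCAR8). Whether any of these HAS1 and HAS2 reads came from omental cells in the sorted fraction was not tested.

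HAS3 moved apart from this. In OVCAR4 it was at 14.0, 9.91 and 10.4 CPM in 3D replicates 42, 4 and 6 against 6.32 to 7.25 CPM on plastic, with no overlap. It was highest in replicate 42, the 3D library of this line with the lowest fibroblast sum (140 CPM) and the lowest COL1A2 (31.9 CPM, against 308 and 303 in replicates 4 and 6). The rise of HAS3 was 1.71-fold (log2 difference 0.77, SE 0.25, adjusted p = 0.0294). It was lost when any of the 6 OVCAR4 libraries was left out, namely without 3D replicate 42 (adjusted p = 0.113), 4 (0.0502) or 6 (0.0584), or without plastic replicate 42 (0.0626), 4 (0.117) or 6 (0.0510). In Kuramochi (0.623 to 1.42 against 0.633 to 1.32 CPM) and OVCAR8 (2.14 to 2.69 against 2.48 to 3.06 CPM) the cultures overlapped, with 95% intervals of the log2 difference from -0.61 to 0.65 and from -0.74 to 0.36. Whether the change of HAS3 differed between the lines did not pass (adjusted p = 0.197).

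**Figure D2:**
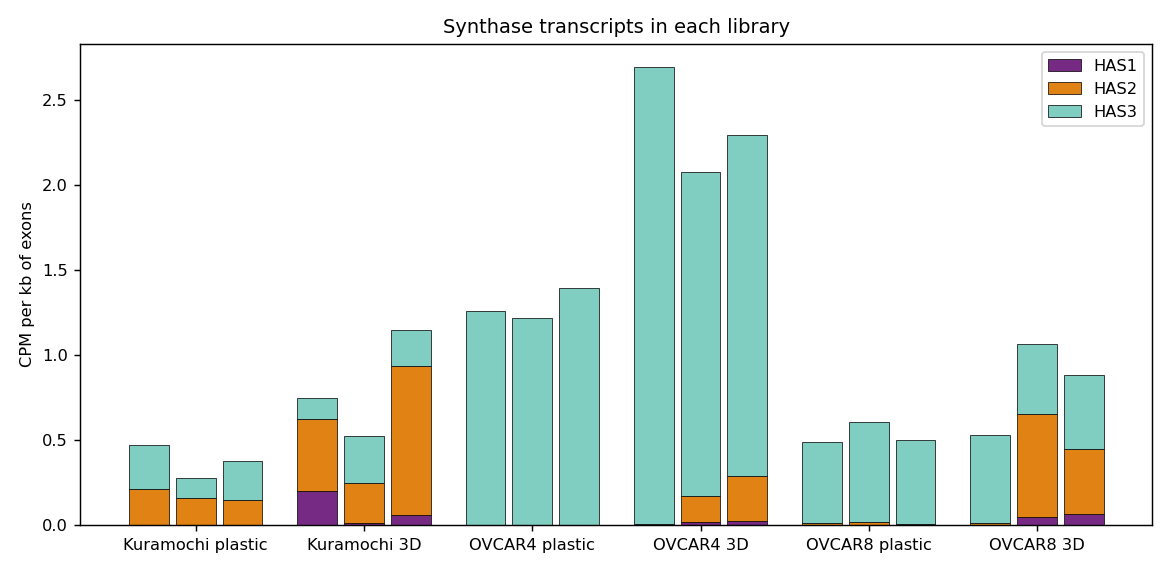
Stacked level of HAS1, HAS2 and HAS3 in CPM per kb of exon, 1 bar per library, by line and culture. OVCAR4 is almost wholly HAS3 in both cultures, Kuramochi mixes HAS2 and HAS3 in both, and the HAS2 part of OVCAR8 appears in 2 of its 3 libraries on 3D.

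Taken per kb, the 3 synthases together stood at 0.804 ± 0.317 on 3D and 0.374 ± 0.0950 on plastic in Kuramochi, at 2.36 ± 0.313 and 1.29 ± 0.0933 in OVCAR4, and at 0.826 ± 0.273 and 0.531 ± 0.0625 CPM per kb in OVCAR8 (SD, n = 3). HAS2 made up 59.4 ± 15.9% of this on 3D and 47.1 ± 8.42% on plastic in Kuramochi, where the cultures overlapped. In OVCAR4 it made up 0.229%, 7.60% and 11.4% in 3D replicates 42, 4 and 6 and 0% on plastic. In OVCAR8 it made up 2.42%, 57.1% and 43.1% in 3D replicates 4, 61 and 62 and 1.36% to 2.80% on plastic. By a two-sided exact permutation test of 3 against 3 libraries, for which 0.1 is the smallest p, the share gave p = 0.4 in Kuramochi, 0.1 in OVCAR4 and 0.3 in OVCAR8.

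Across all tested hyaluronan genes, 3 of 8 changed between cultures in Kuramochi, where 27.3% of all genes did, 5 of 8 in OVCAR4 (27.1%) and 2 of 8 in OVCAR8 (10.8%). With the replicate block, 5 of 8 changed in Kuramochi, against 29.5% of all genes. Leaving out 1 library gave 3 to 4 calls in Kuramochi, 2 to 6 in OVCAR4 and 1 to 3 in OVCAR8. The median log2 difference of the 8 genes was 0.64, 0.99 and 0.65 in Kuramochi, OVCAR4 and OVCAR8, against 0.02, 0.04 and 0.02 over all tested genes.

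**Figure D3:**
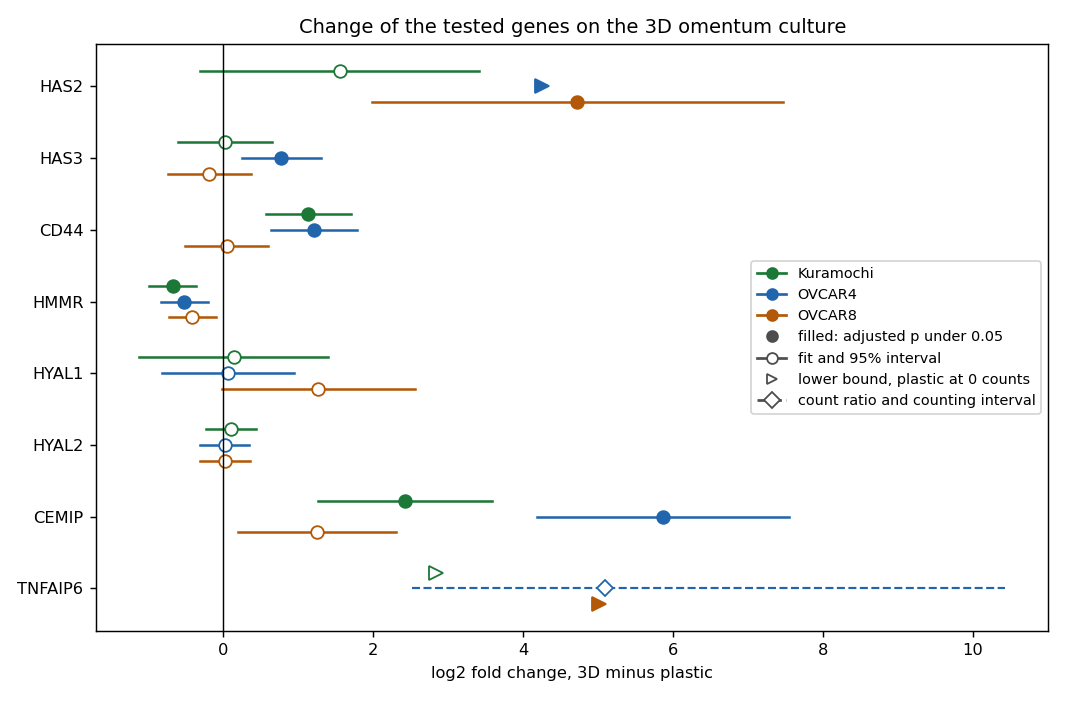
Log2 fold change from plastic to 3D for the 8 tested genes in 3 lines, with 95% intervals of the fit; triangles are lower bounds for genes at 0 counts on plastic, the diamond is a ratio of counts with its counting interval, and filled symbols have an adjusted p under 0.05. CD44 is near 1 in Kuramochi (1.13) and OVCAR4 (1.21) and near 0 in OVCAR8 (0.04), and CEMIP is largest in OVCAR4 (5.87).

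CD44 rose in the lines where it was lower on plastic. In Kuramochi it was at 114, 93.9 and 149 CPM in 3D replicates 2, 4 and 8 against 30.7, 64.6 and 67.3 CPM in the plastic replicates of the same numbers, a 2.20-fold rise (log2 difference 1.13, SE 0.27, adjusted p = 0.00560). In OVCAR4 it was at 45.4, 36.6 and 35.5 CPM in 3D replicates 42, 4 and 6 against 24.2, 12.04 and 14.6 CPM, a 2.32-fold rise (1.21, SE 0.27, adjusted p = 0.00480). The cultures did not overlap in either line, and both calls held without any 1 library (adjusted p up to 0.0328 and 0.0390). In Kuramochi CD44 on 3D had the same order as COL1A2 (38.2, 180 and 275 CPM in replicates 4, 2 and 8) and was lowest in replicate 4. In OVCAR4 the highest level of CD44 was in replicate 42, where the fibroblast sum was lowest. In OVCAR8 it was at 495, 372 and 370 CPM in 3D replicates 4, 61 and 62 against 371 to 417 CPM on plastic, so that replicate 4, with the least COL1A2, was highest and the close pair lay at the low end of the plastic range. The log2 difference of CD44 there, 0.04, had a 95% interval from -0.51 to 0.60. The change in OVCAR8 was less than in Kuramochi by 1.09 (SE 0.37) and less than in OVCAR4 by 1.17 (SE 0.38), but the interaction of line and culture did not pass (adjusted p = 0.0957, where 6.17% of all genes were called). The CD44 interaction passed without Kuramochi plastic replicate 2 (adjusted p = 0.0340) or OVCAR4 plastic replicate 42 (0.0239), and with the replicate block (0.0338, where 7.72% of all genes were called). The block joins libraries by number in every line, while the numbers were taken as a pairing in Kuramochi only.

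Of 9 genes that bind or process CD44 the test called 4 higher on 3D for Kuramochi, 3 for OVCAR4 and 1 for OVCAR8, and none lower. Over all genes 14.4%, 15.2% and 7.51% were called higher in these lines. The list medians were 0.17, 0.19 and 0.18, against 0.02, 0.04 and 0.02 over all genes. The count was 2 without Kuramochi plastic replicate 8, and in OVCAR8 it was 2 without 3D replicate 4 and 0 without 3D replicate 61 or 62 or plastic replicate 4 or 62. MMP14, a membrane protease that can cut CD44, was called higher in each line, with log2 differences of 0.99 (SE 0.27, adjusted p = 0.0128) in Kuramochi, 1.97 (SE 0.28, adjusted p = 0.000342) in OVCAR4 and 0.94 (SE 0.27, adjusted p = 0.0343) in OVCAR8. In Kuramochi the MMP14 call was lost without 3D replicate 2 (adjusted p = 0.0502) or plastic replicate 8 (0.0642), and in OVCAR8 without 3D replicate 61 (0.152) or 62 (0.124) or plastic replicate 4 (0.124) or 62 (0.138). Whether any of the MMP14 reads came from omental cells in the sorted fraction was not tested. ADAM17, a sheddase of many surface proteins, rose in Kuramochi (0.67, SE 0.15, adjusted p = 0.00337) and OVCAR4 (0.68, SE 0.15, adjusted p = 0.00381), and both calls held without any 1 library. MSN, which links CD44 to actin, rose by 0.70 (adjusted p = 0.00199) in Kuramochi and by 0.52 (adjusted p = 0.0120) in OVCAR4, where the call was lost without plastic replicate 4 (0.0813). ADAM10, another sheddase of CD44, was the remaining gene called in Kuramochi (0.46, adjusted p = 0.0167), and its call was lost without 3D replicate 4 (0.0788) or 8 (0.0568) or plastic replicate 4 (0.0999) or 8 (0.0513).

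Of 6 other receptors 2 were tested. LAYN was not called between cultures in any line, and TLR2 was called in OVCAR8 from a mean under 1 CPM. In OVCAR8 the TLR2 call was lost without 3D replicate 61 (adjusted p = 0.0865) or 62 (0.0593) and without plastic replicate 4 (0.0715) or 62 (0.0896).

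HMMR fell in Kuramochi and OVCAR4, as did most genes of a mitotic list. In Kuramochi it was at 50.2, 58.2 and 56.9 CPM in 3D replicates 2, 4 and 8 against 104, 83.3 and 77.0 CPM on plastic, a log2 difference of -0.68 (SE 0.15, adjusted p = 0.00402), with no overlap. In OVCAR4 it was at 82.8, 60.1 and 60.0 CPM in 3D replicates 42, 4 and 6 against 110, 81.1 and 100 CPM on plastic, and 3D replicate 42 exceeded plastic replicate 4. The difference of -0.52 (SE 0.15, adjusted p = 0.0182) was no longer called without 3D replicate 4 (adjusted p = 0.0945) or 6 (0.0925) or without plastic replicate 42 (0.0686). In OVCAR8 it was at 100, 93.6 and 91.4 CPM in 3D replicates 4, 61 and 62 against 111 to 139 CPM on plastic, with no overlap and a difference of -0.41 (SE 0.15) that did not pass (adjusted p = 0.0851), but did in a fit of the OVCAR8 libraries alone (0.0161). The change did not differ detectably between lines (interaction adjusted p = 0.689). In the 3D libraries with the least COL1A2, HMMR was below each plastic library of the line in Kuramochi replicate 4 and OVCAR8 replicate 4, and above plastic replicate 4 in OVCAR4 replicate 42.

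Of 15 mitotic genes on a list, 11 fell in Kuramochi, 11 in OVCAR4 and 8 in OVCAR8, and none rose, where 12.8%, 11.9% and 3.32% of all genes fell. Their median log2 differences were -0.66, -0.51 and -0.51. In OVCAR4, 7 fell without 3D replicate 6. In OVCAR8, 13 fell without 3D replicate 4, 4 without 3D replicate 61 or 62 or plastic replicate 4 or 62, and 5 without plastic replicate 61. AURKA, a kinase that HMMR helps to place at the spindle, fell in Kuramochi (-0.88, adjusted p = 0.000439), OVCAR4 (-0.77, adjusted p = 0.00155) and OVCAR8 (-0.74, adjusted p = 0.00234). The cyclin CCNB2 fell by log2 differences of -1.03, -0.80 and -0.70 in the same order (adjusted p = 0.000249, 0.00175 and 0.00541). The AURKA and CCNB2 calls held without any 1 library. The largest falls on the list were those of UBE2C (-1.17) and PLK1 (-1.15) in Kuramochi, and KIF20A led in OVCAR8 (-0.81). TPX2, a spindle factor, was the gene whose profile over the 18 libraries lay nearest to HMMR, with a root mean square difference of 0.159 on the log2 scale, against 0.415 for the spread of HMMR itself. SPAG5, another spindle gene, lay at 0.162, and NPM1P21, a pseudogene whose reads may be shared with its parent gene, at 0.161. In Kuramochi and OVCAR4 the difference of HMMR sat among those of TPX2 (-0.66 and -0.49), CDK1 (-0.58 and -0.48) and NUF2 (-0.61 and -0.51). The calls of TPX2 in OVCAR4 were lost without 3D replicate 4 (adjusted p = 0.0747) or 6 (0.0758) or plastic replicate 42 (0.0572), those of CDK1 without 3D replicate 4 (0.0599) or 6 (0.0558), and that of NUF2 without 3D replicate 6 (0.0724).

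**Figure D4:**
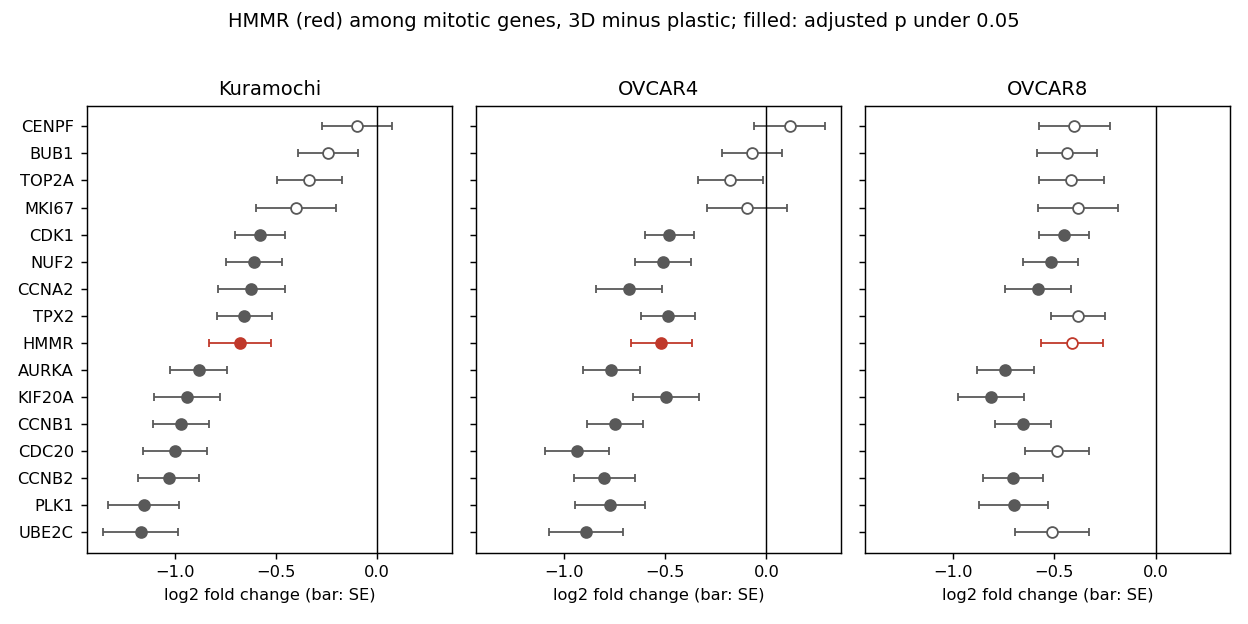
Log2 fold change with its SE from plastic to 3D for HMMR (red) and 15 mitotic genes (grey) in each line; filled points have an adjusted p under 0.05. HMMR lies within the range of the mitotic genes in all 3 lines, at -0.68, -0.52 and -0.41.

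Among the degrading proteins CEMIP moved and the hyaluronidases HYAL1 and HYAL2 were not called. In Kuramochi, CEMIP was at 1.21, 2.44 and 7.78 CPM in 3D replicates 2, 4 and 8 against 1.08, 0.413 and 0.628 CPM on plastic, without overlap. The rise was 5.36-fold (log2 difference 2.42, SE 0.55, adjusted p = 0.00452) and 1.37 on the log2 scale without 3D replicate 8 (adjusted p = 0.0485). In OVCAR4 it was at 1.57, 4.37 and 3.76 CPM in 3D replicates 42, 4 and 6 against 0.0318, 0.0298 and 0.0937 CPM on plastic, where the 3 libraries together held 5 counts. The log2 difference was 5.87 (SE 0.80, adjusted p = 0.000233), or 6.55 without plastic replicate 6. In OVCAR8 it was at 3.26, 5.50 and 4.73 CPM in 3D replicates 4, 61 and 62 against 1.63 to 2.08 CPM on plastic, again without overlap. The difference of 1.25 (SE 0.50) did not pass (adjusted p = 0.117), although it did without Kuramochi 3D replicate 8 (adjusted p = 0.0442), a library of another line that shares the estimate of spread, and in a fit of the OVCAR8 libraries alone (0.00693).

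CEMIP was the 1 tested hyaluronan gene whose change depended on the line (interaction adjusted p = 0.0243). The change in OVCAR8 was less than that in OVCAR4 by 4.62 on the log2 scale (SE 1.00, adjusted p = 0.0137, where 4.04% of all genes were called). The pairs that did not pass were OVCAR4 less Kuramochi at 3.45 (SE 1.06, adjusted p = 0.187, with 0.799% of all genes called) and OVCAR8 less Kuramochi at -1.17 (SE 0.74, adjusted p = 0.361, with 5.71% called). On 3D the means of the 3 lines were 3.81 ± 3.49, 3.23 ± 1.47 and 4.50 ± 1.14 CPM in Kuramochi, OVCAR4 and OVCAR8 (SD, n = 3), so the lines differed in CEMIP on plastic more than on 3D. The interaction was not called without OVCAR4 3D replicate 4 (adjusted p = 0.0555) or 6 (0.0513), OVCAR4 plastic replicate 42 (0.0556) or 4 (0.0798), OVCAR8 3D replicate 62 (0.0511) or OVCAR8 plastic replicate 62 (0.0574). With close pairs summed it was not called either (adjusted p = 0.149, where 1.01% of all genes were called). CEMIP was above every plastic library of its line in the 3D libraries with the least COL1A2, namely Kuramochi 4 (38.2 CPM of COL1A2), OVCAR4 42 (31.9 CPM) and OVCAR8 4 (8.33 CPM). Among the 3D libraries of its line CEMIP was also lowest there in OVCAR4 (1.57 CPM) and OVCAR8 (3.26 CPM). In Kuramochi it was lowest in 3D replicate 2 (1.21 CPM). COL1A2 averaged 0.0369, 2.33 and 0 CPM on plastic in Kuramochi, OVCAR4 and OVCAR8, so the 3D libraries with the least of it still lay above these means. Whether any of these CEMIP reads came from omental cells in the sorted fraction was not tested. The genes nearest to CEMIP in profile were DDR2, a collagen receptor, SERPINB2 and LYST, at root mean square differences of 0.511, 0.583 and 0.584 on the log2 scale.

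HYAL2 was at 49.1 ± 11.0 CPM on 3D and 45.6 ± 5.58 on plastic in Kuramochi, 50.1 ± 3.94 and 49.5 ± 9.97 in OVCAR4, and 55.2 ± 2.57 and 54.5 ± 2.62 in OVCAR8 (SD, n = 3). The 95% intervals of the log2 difference ran from -0.23 to 0.44, from -0.32 to 0.35 and from -0.31 to 0.35. TUSC2, which shares 2756 bases with HYAL2 on the same strand, was not called either. HYAL1 had 6 to 8 counts on 3D and 3 to 10 on plastic in Kuramochi, and 16 to 41 and 15 to 45 in OVCAR4. In OVCAR8 it had 7, 11 and 16 counts in 3D replicates 4, 61 and 62 and 3 to 5 on plastic. The cultures did not overlap there, but the log2 difference of 1.27 (95% interval -0.02 to 2.55) did not pass (adjusted p = 0.190).

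Of 7 other turnover enzymes 5 were tested. CEMIP2, a membrane relative of CEMIP that has been described both as a cell surface hyaluronidase and as a regulator of hyaluronan, rose in Kuramochi from 36.6 to 118 CPM (log2 difference 1.69, SE 0.20, adjusted p = 3.69e-05), a call that held without any 1 library. CEMIP2 was not called in OVCAR4, except without plastic replicate 42 (adjusted p = 0.0173), nor in OVCAR8. GUSB, which removes glucuronic acid in lysosomes, fell in Kuramochi (-0.50, SE 0.14, adjusted p = 0.0133) but not without 3D replicate 8 (0.0749) or plastic replicate 4 (0.0971). HEXA, a lysosomal enzyme that removes end sugars, was called higher in OVCAR8 (0.37), a call that leaving out any of 8 libraries ended.

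TNFAIP6 was found on the 3D culture and hardly at all on plastic. It had 9, 1 and 10 counts in Kuramochi 3D replicates 2, 4 and 8, 9, 14 and 14 in OVCAR4 3D replicates 42, 4 and 6, and 1, 76 and 44 in OVCAR8 3D replicates 4, 61 and 62. Of the 9 plastic libraries only OVCAR4 replicate 4 held any, with 1 count. The OVCAR8 mean rose at least 32.3-fold against a floor of 3 counts over the group (adjusted p = 0.0119), or 17.5-fold without 3D replicate 61, 21.2-fold without plastic replicate 4 and 21.1-fold without plastic replicate 62. With the close pairs of OVCAR8 summed this call was lost (adjusted p = 0.0967). In OVCAR4 the ratio of counts was 34.0 with a 95% counting interval from 5.74 to 1379 and did not pass (adjusted p = 0.0515), but it did without Kuramochi 3D replicate 4 (0.0418), OVCAR8 3D replicate 4 (0.00661) or OVCAR8 3D replicate 61 (0.0312), and by DESeq2 (0.0116). Without OVCAR4 plastic replicate 4 the level was at least 7.42-fold higher. In Kuramochi it was at least 7.13-fold higher and did not pass (adjusted p = 0.0733), or 4.63-fold without plastic replicate 2 and 4.48-fold without plastic replicate 4. It passed with the replicate block (0.00842), by DESeq2 (0.00740) and without OVCAR8 3D replicate 4 (0.0106) or 61 (0.0447). In each line TNFAIP6 was lowest in the 3D library with the least COL1A2, and in OVCAR8 it went from 1 count at 8.33 CPM of COL1A2 to 76 counts at 599 CPM. Whether any of these TNFAIP6 reads came from omental cells in the sorted fraction was not tested.

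**Figure D5:**
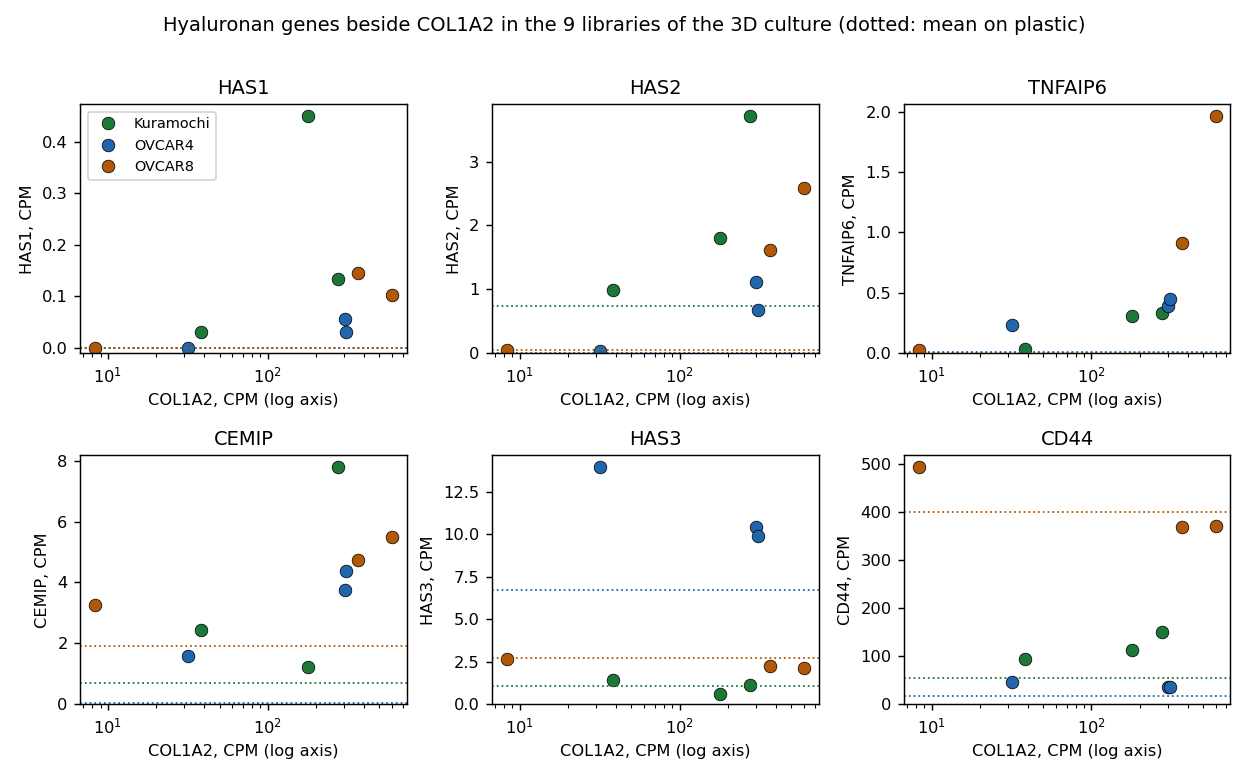
Level of 6 hyaluronan genes in CPM against COL1A2 in CPM (log axis) in the 9 libraries of the 3D culture, coloured by line; dotted lines are plastic means. HAS2 and TNFAIP6 are lowest in the library with the least COL1A2 in every line, whereas HAS3 and CD44 in OVCAR4 and OVCAR8 are highest there. CEMIP is lowest there in OVCAR4 and OVCAR8, and CD44 is lowest there in Kuramochi.

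The profile of HAS2 over the 18 libraries was nearest to SVEP1 (root mean square difference 0.391 on the log2 scale), MGP (0.462), a matrix protein, and PSD2 (0.495). That of CD44 was nearest to MAP1B (0.362), MMP19 (0.443) and TPBG (0.444), and that of HAS3 to ABHD3 (0.278), MITF (0.312) and C18orf25 (0.316). HYAL2, which hardly varied, was nearest to WASH9P (0.122), WASH7P (0.127) and PPP6R2 (0.139), of which the WASH genes are near-identical copies with uncertain counts. These are likenesses of level over lines and cultures, over 18 libraries.

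Of the enzymes that supply the sugar precursors most calls were rises in Kuramochi and OVCAR4. Of 7 tested, 4 rose in Kuramochi, 4 rose and 1 fell in OVCAR4, and 1 rose in OVCAR8, with medians of 0.45, 0.41 and 0.05 against 0.02, 0.04 and 0.02 over all genes. Over all genes 27.3%, 27.1% and 10.8% were called in these lines. These counts rested on few libraries. In Kuramochi 2 rose without 3D replicate 8 or plastic replicate 4. In OVCAR4 1 rose without 3D replicate 4 or 6 or plastic replicate 4, and 2 without plastic replicate 6. In OVCAR8 none rose without 3D replicate 61 or 62 or plastic replicate 4 or 62. UGDH, which makes UDP-glucuronic acid, rose by 0.81 (SE 0.15, adjusted p = 0.00108) in Kuramochi and 0.60 (SE 0.15, adjusted p = 0.00675) in OVCAR4 on the log2 scale, and both calls held without any 1 library. UGDH in OVCAR8 differed by 0.18 (adjusted p = 0.443). GFPT1, the entry enzyme of the hexosamine pathway, rose in Kuramochi by 0.73 (SE 0.16, adjusted p = 0.00304), and by 0.53 (adjusted p = 0.0178) in OVCAR4, where the call was lost without 3D replicate 4 (0.0669) or 6 (0.0542) or plastic replicate 4 (0.122). The call of PGM3, a later enzyme of that pathway, was lost without Kuramochi 3D replicate 8 (0.0731) or plastic replicate 4 (0.0852). In OVCAR4 the PGM3 call was lost without plastic replicate 4 (0.170) or 6 (0.0538) and without 3D replicate 4 (0.0919) or 6 (0.0545). GFPT2, the relative of GFPT1, was called in Kuramochi (0.72, adjusted p = 0.0415) and OVCAR4 (0.86, adjusted p = 0.0178), calls that leaving out any of 11 and any of 4 libraries ended. GFPT2 rose in OVCAR8 by 0.96 (SE 0.23, adjusted p = 0.0131), but not without 3D replicate 61 (0.0723) or 62 (0.0624) or plastic replicate 4 (0.0792) or 62 (0.0853). The enzyme in OVCAR4 that fell was GNPNAT1 (log2 difference -0.39, adjusted p = 0.0394), a call lost without 3D replicate 4 (0.155) or 6 (0.154), plastic replicate 42 (0.137) or 6 (0.0795) or OVCAR8 plastic replicate 4 (0.0539). UAP1, which makes UDP-N-acetylglucosamine, was high on plastic in OVCAR8 at 312 CPM, against 70.8 in Kuramochi and 73.9 in OVCAR4 (adjusted p = 2.43e-10 and 3.10e-10).

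Of 15 proteins that bind hyaluronan in the matrix or are transferred to it, 9 were tested. In Kuramochi 2 rose and none fell, in OVCAR4 none rose and 2 fell, and in OVCAR8 2 rose and 1 fell, against 27.3%, 27.1% and 10.8% of all genes called. Both falls in OVCAR4 were lost without 3D replicate 4 or 6 or plastic replicate 4, and both rises in OVCAR8 without 3D replicate 61 or 62 or plastic replicate 4 or 62, while 4 rose there without 3D replicate 4 or Kuramochi 3D replicate 2. HAPLN4, a link protein under 1 CPM, was the second gene called lower in OVCAR4 (adjusted p = 0.0495), a call that leaving out any of 12 libraries ended. ITIH4, of the heavy chain family, was the other gene called higher in OVCAR8 (1.05, adjusted p = 0.0234), a call that leaving out any of the 5 OVCAR8 libraries other than 3D replicate 4 ended. VCAN, a large proteoglycan that binds hyaluronan, rose in Kuramochi from 2.57 to 23.8 CPM (log2 difference 3.23, SE 0.59, adjusted p = 0.00167), or 2.58 without 3D replicate 8. In OVCAR8 the rise of VCAN from 14.0 to 54.3 CPM (1.96, SE 0.53, adjusted p = 0.0282) was lost without 3D replicate 61 (0.146) or 62 (0.105) or plastic replicate 4 (0.125) or 62 (0.122). COL1A2 was highest in Kuramochi in 3D replicate 8 (275 CPM). In OVCAR8 it was 599 and 367 CPM in 3D replicates 61 and 62, against 8.33 CPM in replicate 4. Whether any of these VCAN reads came from omental cells in the sorted fraction was not tested. PTX3, which binds TNFAIP6 in the hyaluronan matrix of the mouse cumulus, rose in Kuramochi from 6.65 to 26.7 CPM (2.01, SE 0.42, adjusted p = 0.00282). PTX3 fell in OVCAR4 from 26.4 to 10.2 CPM (-1.37, SE 0.40, adjusted p = 0.0201), but not without 3D replicate 4 (0.0778) or 6 (0.0581) or plastic replicate 4 (0.0630). ITIH3, a heavy chain that TNFAIP6 can transfer, fell in OVCAR8 from 2.84 to 0.559 CPM (-2.33, SE 0.40, adjusted p = 0.00112), and this held without any 1 library.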

How the data were processed

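RNA-seq counts of 18 libraries were used. The authors deposited unscaled counts of reads per gene; the submitters' processing notes and methods name Trimmomatic 0.33, TopHat2 2.1.0, HTSeq, GRCh38 and GENCODE 25, and the authors' own tests used DESeq2 1.12.3. Of 58288 IDs, 57532 were named by GENCODE 44 (99.75% of counts). Main tests were run in edgeR 4.0.16 (limma 3.58.1, R 4.3.3; TMM, filterByExpr with a minimum count of 10 and total of 15, robust quasi-likelihood F-test, 6 groups in 1 model, Benjamini-Hochberg within each contrast). Each result was recomputed with DESeq2 1.42.0, with RLE factors, without the filter, with a 2-fold minimum, separate fits, a replicate block, close pairs summed, and each library left out. On simulated data 86%, 90% and 88% of 2-fold rises were called in Kuramochi, OVCAR4 and OVCAR8 (50 genes each, 21705, 21711 and 21685 genes tested). The changed genes were drawn from those at 1 CPM or more in every library. HAS2, HAS3, HYAL1, CEMIP and TNFAIP6 lay under this in some or all libraries, so these rates do not cover them. In Kuramochi, 3D and plastic libraries of the same number deviated together (correlations 0.169, 0.125 and 0.282), so the numbers were taken to pair them.

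The genes and lists were chosen with earlier results of these data known. All 9 genes are named. Of each pathway list the rule took up to 4 called genes per comparison with the largest change at 1 CPM or more in a group, of which the text gives some, and of each gene at 1 CPM or more the 3 nearest profiles on log2 CPM with a pseudocount of 0.5. TLR2, LAYN and HAPLN4 between cultures, GNPNAT1, and AURKA, CDK1, NUF2 and TPX2 where they were not among those 4 were chosen after their values were seen. A gene of a pathway list is counted but not reported singly.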

Additional observations from a re-analysis of the deposited data

Results flagged for a closer look

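The change of CEMIP from plastic to 3D differed between the lines by a test of the interaction over all 22023 genes in edgeR (adjusted p = 0.0243). The log2 difference was 2.42 in Kuramochi, 5.87 in OVCAR4 and 1.25 in OVCAR8, and CEMIP was higher in 3 of 3 libraries on 3D in each line. The adjusted p ranged from 0.00269 to 0.0798 when 1 library was left out.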

How the results depend on the processing

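With the replicate block 5 hyaluronan genes were called between cultures in Kuramochi in place of 3, where 29.5% of all genes were called in place of 27.3%. The interaction called 2 in place of 1 (CD44 added), where 7.72% of all genes were called in place of 6.17%. Same-number correlations were 0.325, 0.09 and 0.145 in OVCAR4 replicates 42, 4 and 6, where 4 and 6 also correlated across numbers (0.154 and 0.174). In OVCAR8 replicates 4, 61 and 62 they were 0.095, 0.106 and -0.084. The numbers were not taken to pair the libraries of OVCAR4 and OVCAR8, where the block gave 6 and 2 calls in place of 5 and 2. No paired analysis was possible because the lines share only number 4 for the comparisons on plastic. With close pairs summed 2 were called in OVCAR4 (8.18% of all genes), 0 in OVCAR8 (1.97%) and 0 by the interaction (1.01%). Between OVCAR8 and Kuramochi on plastic 3 of the main 5 were called. Without a filter 1 was called in OVCAR8, 3 between OVCAR8 and Kuramochi and 0 by the interaction. A 2-fold minimum left 3 in OVCAR4, and DESeq2 called 2 by the interaction. Leaving out 1 library gave 2 to 6 calls in OVCAR4, 1 to 3 in OVCAR8, 3 to 5 between OVCAR8 and Kuramochi and 0 to 2 by the interaction. Where no share of all genes is given beside a count, the count is not read as a result about the hyaluronan genes. The cause of these shifts was not tested.

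Signs turned only among values that were not called. HAS3 in Kuramochi was -0.0147 without a filter, -0.0219 in a separate fit and -0.26 to 0.28 with 1 library left out. HYAL1 was -0.23 to 0.73 in Kuramochi and -0.24 to 0.46 in OVCAR4 with 1 library left out, and -0.08 in OVCAR4 with close pairs summed. HYAL2 was -0.022 without a filter and -0.0152 in a separate fit in OVCAR4, and with 1 library left out it was -0.10 to 0.21 in Kuramochi, -0.14 to 0.093 in OVCAR4, -0.022 to 0.087 in OVCAR8 and -0.022 to 0.21 between OVCAR8 and OVCAR4 on plastic. CD44 in OVCAR8 was -0.11 to 0.12. Of the other values for single genes, 1139 kept their direction and side of the threshold, 52 lost a call and 18 gained one. Depth limits HAS1, HYAL1 and TNFAIP6 most, since many of their libraries held few counts or 0.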

Other observations

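On plastic the proteins that bind hyaluronan in the matrix also set the lines apart, and these calls held without any 1 library. VCAN, a large proteoglycan that binds hyaluronan, averaged 79.1 CPM in OVCAR4, 14.0 in OVCAR8 and 2.57 in Kuramochi (edgeR adjusted p = 4.84e-06 between OVCAR4 and Kuramochi, 0.00151 between OVCAR8 and Kuramochi and 0.000672 between OVCAR8 and OVCAR4). ITIH5, a member of the inter-alpha-inhibitor heavy chain family, averaged 34.1 CPM in Kuramochi and 39.3 in OVCAR4 but 0.103 in OVCAR8 (edgeR adjusted p = 5.36e-08 and 3.60e-08). HAPLN3, a link protein, averaged 34.4, 45.9 and 3.52 CPM in Kuramochi, OVCAR4 and OVCAR8, and OVCAR8 was lower than both (edgeR adjusted p = 1.39e-07 and 3.28e-08). NF2, which binds the tail of CD44, averaged 41.2, 80.7 and 6.97 CPM in the same order, lowest in the line with the most CD44 (edgeR adjusted p = 4.23e-10 between OVCAR8 and Kuramochi and 8.40e-12 between OVCAR8 and OVCAR4).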
